A study of Saccharomyces cerevisiae with 12 samples.

Results

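XUTs are non-coding RNAs of budding yeast, Saccharomyces cerevisiae, named for their accumulation when the 5′ to 3′ exonuclease Xrn1 is absent. Of the 1798 XUTs listed in the deposited table, 674 shared no nucleotide with a gene of that table on the other strand. These 674 are described here, and the other 1124 lay antisense to a gene. The choice used positions alone, so no measured value decided membership. Total RNA had been sequenced with strand information in 12 libraries, 2 biological replicates of each of 6 groups. The groups were wild type, wild type with FU, and a strain with a deletion of RRP6, each sampled at 2 times after synchronization, 40 min and 100 min. The title of the series names 5-fluorouracil, which FU is taken to mean; neither a dose nor a time of addition appears in the sources used here. The labels state neither how the cells were synchronized nor any other allele of the strains.

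Xrn1 degrades decapped RNA in the cytoplasm, whereas Rrp6 is a 3′ to 5′ exonuclease attached to the nuclear exosome. CUTs, the cryptic unstable transcripts, are the RNAs best known as substrates of Rrp6. Many of them end early through Nrd1 and Nab3, RNA-binding proteins that act with the helicase Sen1 and pass the RNA to the exosome. SUTs are stable unannotated transcripts, and MUTs are transcripts first catalogued in meiosis. The classes were defined in separate surveys, so 1 transcript may appear under several names. FU is a uracil analog that is taken up into RNA, and the exosome with Rrp6 is among the yeast factors known from drug sensitivity screens with it.

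The first 200 nt are shown for the 4 members with the most extreme changes: the largest rises in the RRP6 deletion (XUT1049 and XUT0505) and the largest falls (XUT0109 and XUT1151). They are written 5′ to 3′ on the strand of the transcript, read from the RefSeq sequence of build R64, with the letters GTAA, GTAG and TCTT in capitals. GTAA and GTAG are short forms bound by Nrd1, and TCTT is the form bound by Nab3. XUT1049 lies on the minus strand with its first 200 nt at chr4:444008-444207, XUT0505 on the plus strand at chr9:427792-427991, XUT0109 on the plus strand at chr3:169019-169218 and XUT1151 on the minus strand at chr5:442272-442471.
XUT1049: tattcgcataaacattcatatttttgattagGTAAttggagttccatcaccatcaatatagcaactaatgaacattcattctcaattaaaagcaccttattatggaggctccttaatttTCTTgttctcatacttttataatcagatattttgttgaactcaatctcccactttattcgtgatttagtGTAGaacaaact
XUT0505: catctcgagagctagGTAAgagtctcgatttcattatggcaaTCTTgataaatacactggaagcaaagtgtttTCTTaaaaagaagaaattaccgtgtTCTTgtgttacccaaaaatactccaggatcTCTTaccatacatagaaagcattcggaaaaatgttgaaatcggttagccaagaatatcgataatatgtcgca
XUT0109: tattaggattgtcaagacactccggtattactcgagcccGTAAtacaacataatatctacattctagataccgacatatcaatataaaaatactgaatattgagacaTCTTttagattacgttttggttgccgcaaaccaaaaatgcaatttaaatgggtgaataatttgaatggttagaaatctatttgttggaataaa
XUT1151: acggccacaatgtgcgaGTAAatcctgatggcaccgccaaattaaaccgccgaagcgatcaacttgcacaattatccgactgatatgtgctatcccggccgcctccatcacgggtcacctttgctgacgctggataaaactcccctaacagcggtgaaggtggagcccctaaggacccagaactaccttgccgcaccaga

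XUT1049 held GTAA, GTAG and TCTT once each, and XUT0505 held GTAA once and TCTT 4 times. XUT0109 held GTAA and TCTT once each, and XUT1151 held GTAA once. Such short words are common in any window of 200 nt. GTAA occurred in 65.5% of the windows of 673 members, in 56.9% of 1122 XUTs antisense to genes, in 75.1% of 358 CUTs not antisense to genes and in 48.2% of 5794 genes. TCTT occurred in 62.7%, 76.7%, 83.2% and 58.4% of the same sets, and GTAG in 39.4%, 45.1%, 49.7% and 33.1%. At least 1 of the words was present in 93.5% of the members and in 86.4% of the genes. Only the strand of the transcript was searched, transcripts shorter than the window were taken whole, and matches that shared a base were each counted. The median GC content of the windows was 37.5% in the members and 40.5% in genes, 39.5% in XUTs antisense to genes and 35.0% in the CUTs.

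The members were shorter than the XUTs antisense to genes, with a median length of 450 nt (quartiles 295 and 842 nt, range 139 to 5579 nt) against 710 nt. They were spread over both strands, 339 on the plus and 335 on the minus strand, with 82 on chromosome 7 as the highest count and 1 on the 2-micron plasmid. None shared a nucleotide with a gene of the deposited table on its own strand. Genes or pseudogenes of R64 that are absent from that table overlapped 66 members on the same strand and 56 on the other strand. The members overlapped other classes of non-coding transcript widely: 339 shared at least 1 nt with a CUT, a SUT, a MUT or an mSUT on their strand, 81 with a CUT and 185 with a SUT. The other 335 shared nothing with these classes.

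Position near genes was a common trait. The start of 274 members lay within 500 nt upstream of a gene on the other strand, a divergent arrangement, and 142 members ended within 500 nt upstream of the start of a gene on their own strand. A further 23 started within 300 nt past the end of a gene on their strand, and 3 started within 1000 nt past a snoRNA or snRNA. These positions may overlap, and 318 members had none of the first 3. A dubious open reading frame lay on the other strand of 29 members, and 74 lay within 20000 nt of a chromosome end.

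Ty retrotransposons covered over 50% of the length of 95 members. These fell into a pair of forms. In 53 of them the XUT ran along the Ty strand, with a median length of 5240 nt, near the length of a whole element. In the other 42 it ran against the Ty strand, with a median of 332 nt. The antisense form was much alike from element to element: for Ty1, 32 members on 12 chromosomes started a median of 772 nt from the 5′ end of the element (quartiles 761.5 and 777.25 nt) and ended a median of 352.5 nt from it (quartiles 306 and 488.75 nt). Ty1 antisense RNA is a known product of this region. No gene of the deposited table lies on the Ty strand at these 42 members, so they count as not antisense to genes by the rule. At least 50% of the 50-mers occurred again elsewhere in build R64 in 52 of 53 members on the Ty strand, in 42 of 42 on the other and in 31 of 578 elsewhere. The sources used here do not say how reads that match several copies were counted, so the level of any single Ty member is uncertain.

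Each library held 20102931 to 27498217 reads over the 12026 features of the table. RRP6 itself had densities of 1.30 and 1.07 in wild type at 40 min, 0.951 and 0.868 at 100 min, and 0.0507 to 0.0781 in the 4 libraries of the deletion strain, a log2 change of -3.81 ± 0.21 (SE) and -3.69 ± 0.21, as the labels of these libraries require. Reads over snoRNAs made up 9.99% to 20.9% of a library and differed between replicates at 40 min, with 11.7% and 20.2% in wild type and 10.1% and 20.9% with FU. On the deposited scale every library has the same total over genes, and on it the median gene lay 0.37 (FU, 40 min), 0.30 (FU, 100 min), 0.45 (deletion, 40 min) and 0.45 (deletion, 100 min) log2 units above wild type. Median-of-ratios scaling, an alternative, puts these gene medians at 0.016, 0.002, -0.013 and -0.006, so the median changes of the members are set beside those of the genes. Changes and calls of single members and genes are given on the deposited scale, with this shift left in, unless the other scaling is named. A density here is the deposited value, reads per nucleotide of the feature times 1 factor per library. A log2 change is taken on density plus a pseudocount of 0.0120, which understates the change of low features. A feature is called when its p from limma, adjusted by the Benjamini-Hochberg method over the 11485 features tested, is under 0.05. With 2 libraries a group, 6 residual degrees of freedom were shared by all groups, which limits what could be called.

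The members were scarce RNAs that rose in the deletion strain. Their median density was 0.0391 and 0.0413 in the wild-type libraries at 40 min and 0.0334 and 0.0334 at 100 min. It was 0.0568 and 0.0786 with FU at 40 min, and 0.0562 and 0.0494 at 100 min. In the deletion it was 0.141 and 0.139 at 40 min and 0.130 and 0.141 at 100 min. All 4 deletion libraries thus lay above all FU libraries, and all FU libraries above all wild-type libraries. Against this, the median gene had a density of 0.311 to 0.409 in wild type, 0.409 to 0.513 with FU and 0.491 to 0.512 in the deletion. For the median gene too, the FU libraries thus lay at or above wild type, so changes relative to genes are given below.

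**Figure D1:**
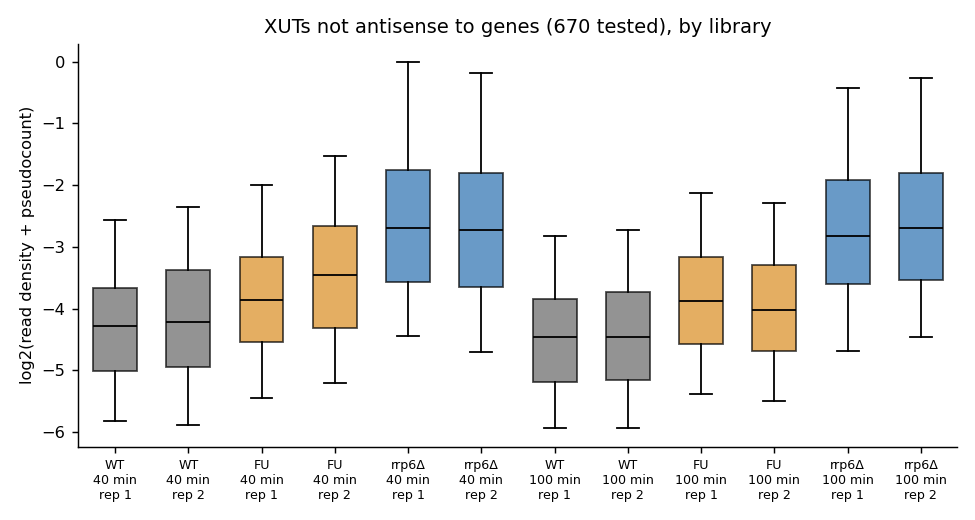
Read density of the 670 tested members in each library, on a log2 axis after the pseudocount was added. Boxes span the quartiles, lines mark the median and whiskers reach from the lowest to the highest values after the extreme 5% at each end are left out. The deletion libraries are the highest at both times, and the FU libraries lie between them and wild type.

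The share of all reads that fell on members showed a like order. In wild type it was 0.190% and 0.156% at 40 min, and 0.152% and 0.150% at 100 min; it was 0.266% and 0.267% with FU at 40 min and 0.229% and 0.190% with FU at 100 min. In the deletion it was 0.638% and 0.617% at 40 min and 0.561% and 0.611% at 100 min. The deletion libraries stood clear of the rest, whereas the lower FU library at 100 min equalled the higher wild-type library at 40 min. The 95% Wilson interval of each share was narrow (0.188% to 0.192% for wild type at 40 min, replicate 1) but covers counting error only. Ty members took 28.5% to 43.2% of the members' reads in wild type and 15.8% to 20% in the deletion. Between 451 and 521 of the 674 members had 10 or more reads in a wild-type library, and 655 to 659 had them in a deletion library.

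A few members far exceeded the others. The highest mean density over the 12 libraries belonged to XUT0649, a transcript of the plus strand at chr12:460330-460763 in the ribosomal DNA, between the 5S gene RDN5-1 and the 25S gene RDN25-2. Its density was 0.533 and 0.986 in wild type at 40 min, 0.274 and 0.319 at 100 min, 2.35 and 7.83 with FU at 40 min and 0.990 and 0.975 with FU at 100 min. In the deletion it was 21.4 and 27.0 at 40 min and 7.74 and 16.3 at 100 min. All deletion libraries were above or, in 1 case, just under the higher FU library at 40 min, and the FU replicates at that time were far apart. This one transcript took 3.16% to 9.67% of all member reads in the deletion. Repeats make up part of it, with 41.6% of its 50-mers found again in R64.

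The next in order was XUT0927 on the 2-micron plasmid, whose density was 0.957 and 1.04 in wild type at 40 min, 0.480 and 0.517 at 100 min, and 2.64 to 6.01 in the deletion. XUT0074, which starts 194 nt past the end of YBR230W-A at chr2:680756-681160, was abundant in every library, between 1.26 and 2.90, and was not called in any comparison with wild type. XUT1151 and XUT0315, described below, complete the 5 most abundant members. The ranking uses all 12 libraries, so the deletion libraries weigh heavily in it.

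At 40 min, 508 of the 670 members tested were called higher in the deletion than in wild type and 2 were called lower. Among all features tested, 54.2% were called higher and 2.85% lower, or 57.0% in either direction. The members' share of 75.8% lay above this, between the 32.3% of genes and the 84.3% of XUTs antisense to genes, and CUTs not antisense to genes reached 92.2%. No test of these differences between sets was made. The median change of the members was 1.46 log2 units (quartiles 0.79 and 2.25) against 0.45 for genes, 1.75 for XUTs antisense to genes and 2.78 for the CUTs. Relative to the median gene the members lay 1.01 higher, and the separate libraries gave 1.01 and 0.96. Of the 492 tested members outside Ty elements that hold no LTR (the terminal repeat of a Ty element), 81.1% were called higher. Their median change was 1.71, or 1.26 relative to the genes, nearer to that of XUTs antisense to genes. In bulk RNA, more cells with a transcript and more RNA per cell cannot be told apart.

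At 100 min, 532 members were called higher and 2 lower, beside 57.1% higher and 2.80% lower, or 59.9% in either direction, among all features. Under median-of-ratios scaling the calls were 351 higher and 5 lower at 40 min and 440 and 5 at 100 min, where 36.2% and 41.3% of all features were called higher. The median change was 1.66 (quartiles 0.98 and 2.46), or 1.21 relative to the genes, with 1.20 and 1.25 from the separate libraries. Both deletion libraries lay above both wild-type libraries for 584 members at 40 min and 648 at 100 min, where the same held for 70.8% and 78.7% of all features. The comparisons at 40 and 100 min share no library: 471 members were called higher in both, which is 92.7% of those called at 40 min and 88.5% of those called at 100 min, and none was called in opposite directions. At 40 min the called rises ranged from 0.57 to 5.59, and 84 members rose by more than 3 log2 units; at 100 min 94 did. The 4 members under the filter on low values, and so not tested, (XUT0122, XUT0853, XUT1184 and XUT1733) had at most 20 reads in any library.

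**Figure D2:**
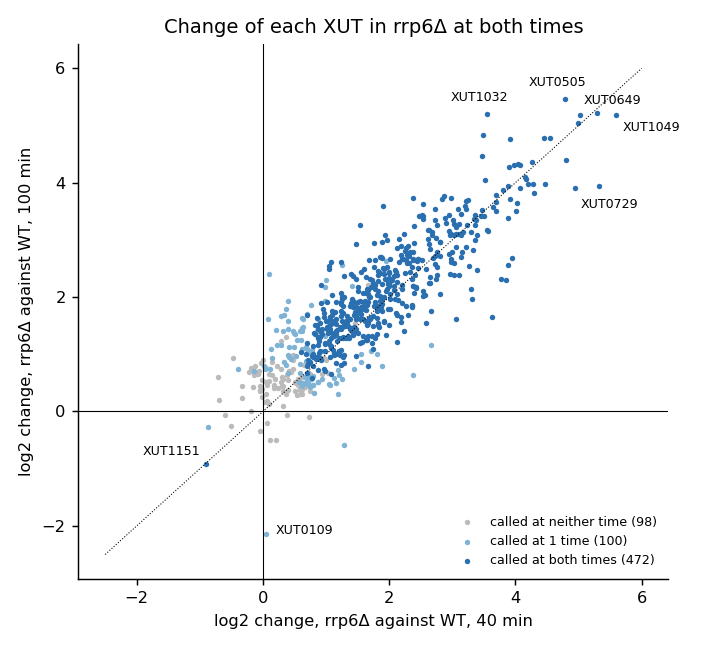
Log2 change of each tested member in the RRP6 deletion against wild type at 40 min (horizontal) and 100 min (vertical), each point 1 member, colored by whether it was called; the dotted line marks equal change. Most members lie in the upper right along the line, from near 0 to above 5, and XUT1151 and XUT0109 stand below 0.

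XUT1049 had the largest rise at 40 min. It covers chr4:443761-444207 on the minus strand, is also listed as SUT465, and starts 476 nt from MCD1, a gene on the other strand that encodes a cohesin subunit. At 40 min its density was 0.0326 and 0.0694 in wild type, against 2.68 and 3.10 in the deletion; at 100 min it was 0.0153 and 0.0103 against 0.851 and 0.922. The groups were far apart at both times, with changes of 5.59 ± 0.34 (limma adjusted p 1.29e-05) and 5.19 ± 0.34 (1.44e-05). MCD1 itself changed by 0.69 ± 0.35 at 40 min (limma adjusted p 0.118) and -0.29 ± 0.35 at 100 min (0.491), and was not called at either time. Over the 12 libraries the log2 densities of XUT0789, XUT0159 and XUT0649 followed that of XUT1049 most closely, with Pearson correlations of 0.991, 0.989 and 0.983 over libraries that fall into the 6 groups.

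XUT0505 had the largest rise at 100 min. It is a long member of 2304 nt on chromosome 9 that starts at position 427792 and ends 9793 nt from the chromosome end. At 100 min its density was 0.0199 and 0.0203 in wild type, against 1.64 and 1.22 in the deletion, and at 40 min 0.0112 and 0.0161 against 1.20 and 0.392. The groups did not overlap, although the deletion replicates at 40 min were well apart; the changes were 5.47 ± 0.65 at 100 min (limma adjusted p 0.000135) and 4.78 ± 0.65 at 40 min (0.000304). XUT0505 shares its strand with MUT796 and lies opposite XUT1353 and SUT616.

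Several of the strongest rises belonged to members that share sequence with a CUT. XUT0984, with CUT456, runs away from CNS1, a co-chaperone gene, and toward RPB5, a subunit of all the nuclear RNA polymerases; it went from 0.0198 and 0.110 in wild type at 40 min to 2.32 and 2.53. The change was 5.29 ± 0.61 (limma adjusted p 0.000145), and at 100 min it was 5.21 ± 0.61 (0.000135). XUT0600, with CUT241, starts 232 nt upstream of GCN3 on the other strand, a subunit of the translation factor eIF2B, and went from 0.0147 and 0.0655 to 1.43 and 1.44 at 40 min. XUT1032, with CUT474, went from 0.0268 and 0.0208 in wild type at 100 min to 1.31 and 1.30, a change of 5.20 ± 0.49 (limma adjusted p 4.96e-05). In all 3 the deletion and wild-type libraries were separated by far more than the replicates.

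The gene downstream of XUT1032 on its strand, YDL183C, was also called higher, by 2.14 ± 0.26 at 40 min (limma adjusted p 0.000186) and 2.80 ± 0.26 at 100 min (4.87e-05). Its mean density was 0.0866 ± 0.0285 (SD, n = 2) in wild type and 0.415 ± 0.0357 (SD, n = 2) in the deletion at 40 min. XUT0315 and its downstream neighbor YFL012W also both rose in the deletion at 40 min. XUT0315, at chr6:110175-110548 and also SUT105, went from 0.138 and 0.249 to 3.33 and 3.94 at 40 min. YFL012W, which starts 99 nt after it, changed by 4.10 ± 0.28 (limma adjusted p 1.88e-05) from a wild-type mean of only 0.00831 ± 0.00407 (SD, n = 2). Whether reads over these genes come from transcripts that begin in the XUT was not tested.

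All 3 members that start past a snoRNA were called higher at both times. XUT0729 starts 821 nt past SNR11, an H/ACA snoRNA, and had densities of 0.0912 and 0.0584 in wild type and 2.12 and 5.44 in the deletion at 40 min, a change of 5.32 ± 0.61 (limma adjusted p 0.000137). Its downstream neighbor ICY1 was called lower at 40 min (-1.08 ± 0.29, limma adjusted p 0.0115) and higher at 100 min (1.01 ± 0.29, 0.0146). CMC4, on the other strand, was called lower at 40 min (-2.1 ± 0.38, limma adjusted p 0.00148) and 100 min (-1.01 ± 0.38, 0.0456). XUT0766, 649 nt past the C/D snoRNA SNR66, went from 0.0422 and 0.0643 to 1.36 and 2.82. XUT1509, 716 nt past the C/D snoRNA SNR61, went from 0.0302 and 0.0249 to 0.515 and 0.828. In each of the 3 members replicate 2 of the deletion was above replicate 1, and the same held at 100 min, with 0.829 and 3.04, 0.568 and 2.03, and 0.288 and 0.493. The share of reads over snoRNAs was alike in these libraries, from 9.99% to 10.3%.

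The called falls were few and small next to the rises. XUT1151, at chr5:442006-442471 upstream of YER137C, had densities of 1.54 and 1.92 in wild type and 1.11 and 0.748 in the deletion at 40 min, and 2.02 and 1.60 against 1.10 and 0.824 at 100 min. The change was -0.91 ± 0.26 at both times (limma adjusted p 0.0152 and 0.0143). The call was lost without wild type replicate 2 or deletion replicate 2 at 40 min, and without wild type replicate 1 or deletion replicate 2 at 100 min, with adjusted p of up to 0.122 and 0.109. XUT0573, also SUT226, starts 478 nt from STE3, the receptor gene for the pheromone a-factor. Its density was 0.237 and 0.340 in wild type and 0.156 and 0.144 in the deletion at 40 min, a change of -0.87 ± 0.23 (limma adjusted p 0.00940), with a call lost without wild type replicate 2 or deletion replicate 2 (adjusted p of up to 0.0609). STE3 was called lower too, by -1.19 ± 0.23 at 40 min (limma adjusted p 0.00205).

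XUT0109 had the largest fall, at 100 min. Its density was 0.104 and 0.0879 in wild type at 100 min, 0.0113 and 0.0131 in the deletion at that time, and 0.0172 and 0.00798 in wild type at 40 min. Only the wild-type libraries at 100 min were high. The change was -2.15 ± 0.39 (limma adjusted p 0.00120), and the call held in all 10 alternatives run, with adjusted p of 8.94e-05 to 0.0109. The highest library had 40 reads over it, and 45.6% of its 50-mers are repeated in R64. XUT0109 overlaps XUT1016, another member on the opposite strand. XUT1016 at chr3:168930-169213 instead rose in the deletion, from 0.00570 and 0 in wild type at 40 min to 0.188 and 0.151.

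**Figure D3:**
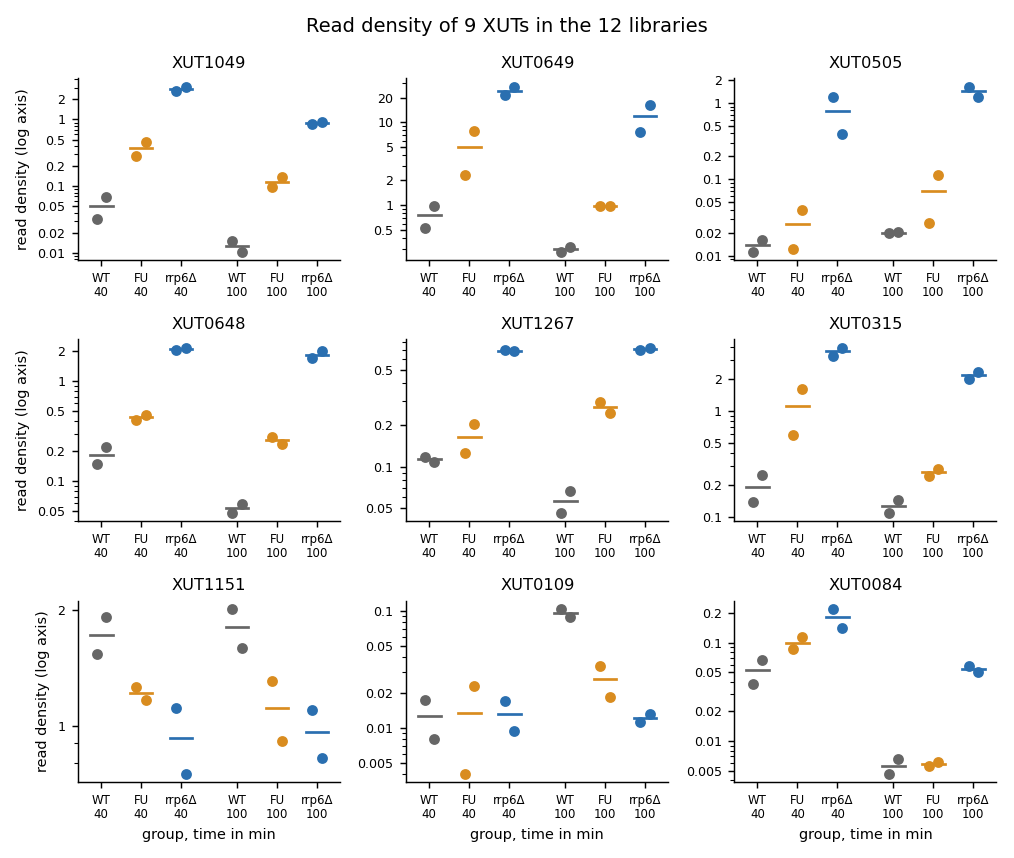
Read density of 9 members on log axes in the 6 groups, each point 1 library and each line the mean of 2 libraries. XUT1049, XUT0649, XUT0648 and XUT0315 have higher means with FU than in wild type and the highest in the deletion at both times, XUT1151 is lower in the deletion, and XUT0109 is high only in wild type at 100 min.

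The rise in the deletion was unlike across classes of position. Of 54 tested members that shared at least 50% of their length with a CUT, 53 were called higher at 40 min and 54 at 100 min, with median changes of 3.08 and 3.09. Of 172 that shared as much with a SUT, 135 and 151 were called higher (medians 1.42 and 1.66). Of 373 with no such overlap, 261 and 265 were (1.21 and 1.45). Divergent members (227 of 272 at 40 min, median 1.76) and those upstream of a gene on their strand (113 of 141, median 1.77) lay above the 317 members with no such neighbor (220 called, median 1.15). The 71 near a chromosome end had 59 calls and a median of 1.59 at 40 min. These are descriptions, since the classes overlap and were not tested against each other. Ty members, described next, were not left out of these classes.

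Ty members stood lowest. Among the 53 on the Ty strand, 32 were called higher at 40 min and 22 at 100 min, with medians of 0.71 and 0.57 beside 0.45 for genes. Among the 42 that run against a Ty element, 6 and 11 were called higher, with medians of 0.17 and 0.68. Relative to the genes the medians were 0.26 and 0.11 on the Ty strand and -0.29 and 0.23 against it. Under median-of-ratios scaling 3 and 13 members on the Ty strand were called higher, and 0 and 3 against it. Of all features, 36.2% and 41.3% were called higher under that scaling. These 42 had a median density of 0.0815 in wild type and 0.0893 in the deletion at 40 min, and 0.0761 and 0.118 at 100 min. Since their sequences are repeated, they may share reads and cannot be taken as separate observations. Outside Ty elements, 470 of 575 members were called higher at 40 min and 499 at 100 min. The 83 members that hold an LTR, the terminal repeat of a Ty element, outside whole elements did not share the low values, with 71 called higher at 40 min and a median of 1.46.

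**Figure D4:**
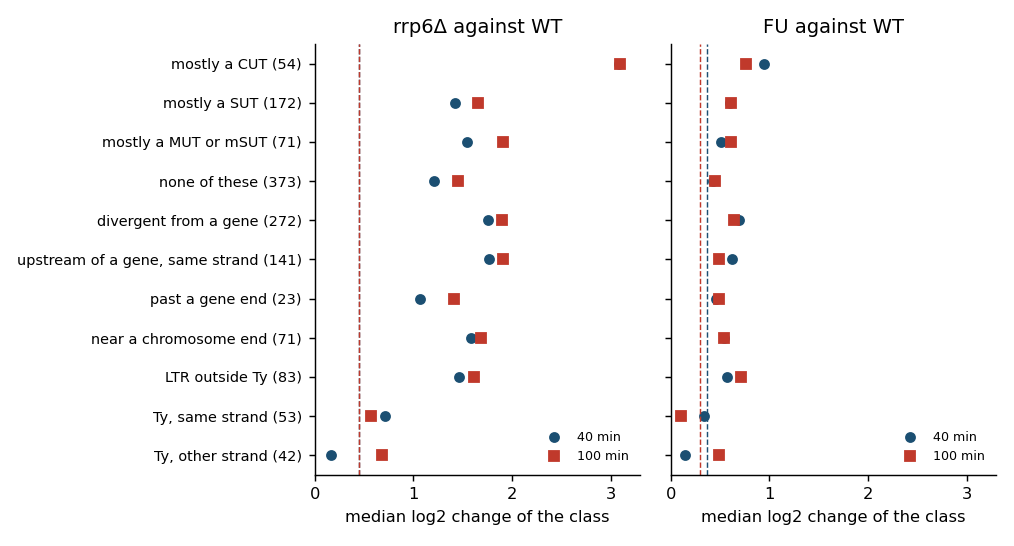
Median log2 change of tested members by position class in the RRP6 deletion (left) and with FU (right), circles for 40 min and squares for 100 min, with the number of tested members in brackets and dashed lines at the median of all genes (the 3 members past a snoRNA are not drawn). Of the 11 classes drawn, members that are mostly a CUT have the highest medians in the deletion (3.08 and 3.09) and Ty members the lowest (0.17 to 0.71), and with FU the medians lie between 0.10 and 0.94.

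FU moved the members far less than the deletion did. At 40 min, 26 of 670 members were called higher with FU and 0 lower, beside 2.54% and 0.235% of all features, so the members' 3.88% was near the background. At an unadjusted p under 0.05, limma had 216 higher (32.2%, beside 26.7% of all features) and 3 lower, and limma-voom on reads called 5 higher and 0 lower. No member was called under median-of-ratios scaling. Without wild type replicate 1 or FU replicate 2 the calls were lost, as were most of those over all features. Without FU replicate 1 the calls rose, among the members and over all features. The median change was 0.54 against 0.37 for genes, and relative to the genes the FU replicates gave -0.10 and 0.45 and the wild-type replicates -0.21 and 0.21. Within each group, the library with the higher value was also the one with the higher share of snoRNA reads (20.9% and 20.2%), and the part of this in the result was not tested.

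At 100 min, 15 members were called higher with FU and 0 lower, beside 1.74% and 0.409% of all features. The members' share was 2.24%, again near the background. At an unadjusted p under 0.05, limma had 207 higher (30.9%, beside 20.3% of all features) and 5 lower. The count was 4 higher and 0 lower under median-of-ratios scaling and 8 higher and 0 lower with limma-voom. Most calls were lost whichever single library was left out, among the members and over all features alike. The median change was 0.53 against 0.30 for genes, and here both FU replicates lay above the genes, by 0.20 and 0.25. Both FU libraries lay above both wild-type libraries for 449 members, where this held for 55.6% of all features.

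XUT0648 was the FU result that held best. It covers 977 nt at chr12:449738-450714 on the plus strand, is also listed as SUT264, and lies beside the ribosomal DNA, before RDN25-1. Its density was 0.0479 and 0.0592 in wild type and 0.275 and 0.238 with FU at 100 min, and 1.70 and 2.01 in the deletion. The FU libraries lay well above wild type and well under the deletion. The change with FU was 2.04 ± 0.22 (limma adjusted p 0.00380), and the call held in all 10 alternatives run, with adjusted p of 0.00323 to 0.0481. At 40 min its density was 0.147 and 0.218 in wild type and 0.411 and 0.459 with FU, a change of 1.22 ± 0.22 (limma adjusted p 0.0393) that was lost under median-of-ratios scaling (0.292).

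XUT1049, the member with the largest rise in the deletion at 40 min, also had the largest rise with FU at both times. Its density with FU was 0.283 and 0.464 at 40 min and 0.0959 and 0.136 at 100 min, between the wild-type and the deletion libraries each time. The changes were 2.64 ± 0.34 (limma adjusted p 0.0226) and 2.36 ± 0.34 (0.0108), and both calls were lost under median-of-ratios scaling (0.106 and 0.0547). The first was also lost without wild type replicate 1 or FU replicate 2 (adjusted p of up to 0.108), and the second without any 1 of the 4 libraries compared (up to 0.110). XUT1267, which starts 482 nt from the histidine permease gene HIP1, went from 0.0463 and 0.0663 in wild type to 0.291 and 0.246 with FU at 100 min, a change of 2.05 ± 0.26 (limma adjusted p 0.00648, and 0.0254 under median-of-ratios scaling). Its call was lost without wild type replicate 1 or FU replicate 1 (adjusted p of up to 0.0693).

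At 100 min XUT0312 had higher densities with FU than in either other group, although its difference from the deletion was not called. Its density was 0.00972 and 0.0157 in wild type, 0.0747 and 0.0619 with FU and 0.0423 and 0.0511 in the deletion, so that the 3 groups did not overlap. Its rise with FU of 1.71 ± 0.26 (limma adjusted p 0.0138) was lost whichever single library was left out (adjusted p of up to 0.137). It overlaps the dubious open reading frame YFL019C on the other strand. The rise of XUT0369 at 100 min was 1.64 ± 0.32 (limma adjusted p 0.0361), from 0.00845 and 0.00909 to 0.0560 and 0.0494, and was lost under median-of-ratios scaling (0.0979) and whichever single library was left out (up to 0.198).

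The remaining large rises with FU at 40 min were those of XUT0649 (2.54 ± 0.54, limma adjusted p 0.0471), XUT1016 (2.37 ± 0.41, 0.0374), XUT0315 (2.33 ± 0.42, 0.0393) and XUT0193 (2.26 ± 0.33, 0.0266). All 4 lost the call under median-of-ratios scaling, with adjusted p of 0.224, 0.106, 0.200 and 0.106. Their replicates with FU differed by up to several fold, as in XUT0315 with 0.596 and 1.62. All 4 calls were also lost without wild type replicate 1 or FU replicate 2, and that of XUT1016 without wild type replicate 2 as well (adjusted p of up to 0.224 over all alternatives). XUT1016 and XUT0193 had 0 reads in 1 wild-type library each.

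The members called with FU at one time and in the deletion at the other time can be set side by side, since those comparisons share no library. Of the 26 called higher with FU at 40 min, 25 were called higher in the deletion at 100 min (96.2% of the first and 4.70% of the second list). Of the 15 called with FU at 100 min, 13 were called in the deletion at 40 min (86.7% and 2.56%). Of all 670 members tested, 79.4% and 75.8% were called higher in those deletion comparisons. The exceptions, picked out after their values were seen, were XUT0996 in the first and XUT0312 and XUT1258 in the second. Between the FU comparisons at 40 and 100 min, 4 members were shared (15.4% and 26.7%): XUT0112, XUT0648, XUT1049 and XUT1509, listed here after their values were seen.

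**Figure D5:**
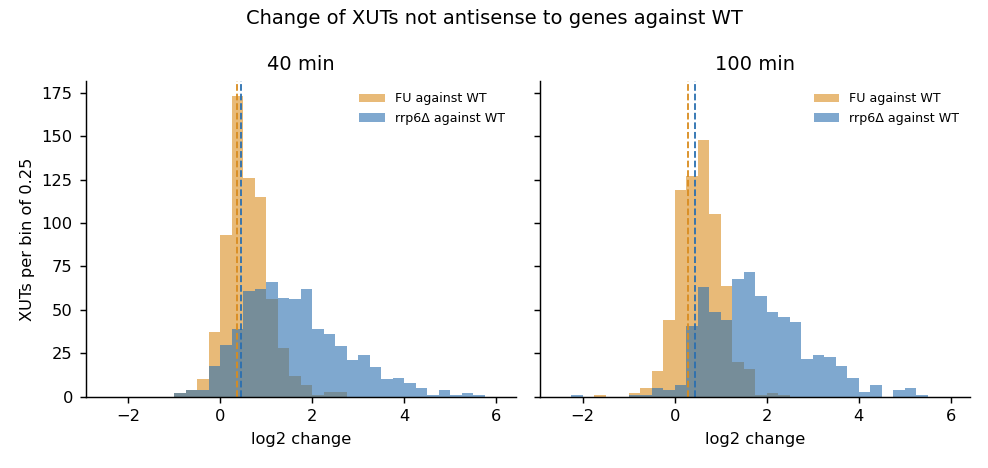
Number of tested members by log2 change against wild type at 40 min (left) and 100 min (right), with FU in orange and the RRP6 deletion in blue; dashed lines mark the median gene in the same comparison. With FU most members lie within 1 log2 unit of the gene line, whereas 208 (40 min) and 255 (100 min) members exceed 2 log2 units in the deletion.

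Set directly against the deletion, the members were lower with FU. At 40 min 301 were called lower and 3 higher, beside 32.7% and 2.55% of all features (35.2% in either direction). At 100 min 412 were called lower and 0 higher, beside 41.3% and 3.34% (44.6% in either direction). When single libraries were left out, the members' calls were fewest without deletion replicate 1 at 40 min and deletion replicate 2 at 100 min. Over all features they were fewest without deletion replicate 2 at both times. At 100 min calls were lost whichever library was left out. The median differences were -0.90 and -1.14, or -0.83 and -1.0 relative to genes. No member was higher with FU at 100 min by limma even at an unadjusted p under 0.05, a count of 0, nor by limma-voom with adjustment; under median-of-ratios scaling 1 was called.

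The 3 members called higher with FU than in the deletion at 40 min were named after their values were seen. XUT0996, between YBR284W and SSH1, had densities of 0.0325 and 0.0486 with FU and 0.00762 and 0.00765 in the deletion, a difference of 1.40 ± 0.30 (limma adjusted p 0.00620). XUT0945, divergent from the flocculin gene FLO1, had 0.372 and 0.418 with FU, 0.228 and 0.213 in the deletion and 0.158 and 0.167 in wild type. XUT0324, upstream of VEL1, had 0.0406 and 0.0260 with FU against 0.0136 and 0.0164. In all 3 the groups did not overlap, with few reads behind XUT0996 and XUT0324.

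Between 40 and 100 min few members changed. In wild type 2 were called higher and 9 lower at 100 min, beside 1.31% and 1.06% of all features. With FU 2 were called higher and 15 lower, beside 1.38% and 2.64% (4.01% in either direction). In the deletion 2 were called higher and 3 lower, beside 1.08% and 0.784%. In wild type these calls were lost without either replicate at 100 min and mostly lost without replicate 2 at 40 min. The share of all features called fell in the same settings, but only slightly without replicate 2 at 40 min. With FU the count rose without replicate 1 at 40 min and fell without any other of the 4 libraries. So did the share of all features called. In the deletion the calls were lost whichever of the 4 libraries was left out, as were most of those over all features.

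XUT0084 was called lower at 100 min in all 3. It lies at chr3:30875-31296, 153 nt upstream of SPB1, a methyltransferase gene of ribosome synthesis. Its density fell from 0.0383 and 0.0664 to 0.00462 and 0.00653 in wild type, from 0.0863 and 0.113 to 0.00565 and 0.00617 with FU, and from 0.221 and 0.140 to 0.0586 and 0.05 in the deletion. The libraries at 100 min lay below those at 40 min in each. The changes were -1.84 ± 0.30 (limma adjusted p 0.0174), -2.63 ± 0.30 (0.00608) and -1.51 ± 0.30 (0.0426). The call in wild type was lost without replicate 2 at 40 min or either replicate at 100 min (adjusted p of up to 0.156), that with FU without either replicate at 100 min (up to 0.0786), and that in the deletion without any 1 of the 4 libraries (up to 0.243). SPB1 changed by -0.51 ± 0.40, -0.57 ± 0.40 and -0.56 ± 0.40, with no call.

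In wild type XUT0109 (described above) and XUT0412 were the members called higher at 100 min, by 2.15 ± 0.39 (limma adjusted p 0.0240) and 1.06 ± 0.18 (0.0204). XUT0412, near a chromosome end at chr8:11230-11547, went from 0.125 and 0.126 to 0.297 and 0.251. The other large falls in wild type were those of XUT0592 (-2.00 ± 0.38, limma adjusted p 0.0314), between the primase gene PRI2 and the cell wall gene DCW1, and XUT1258 (-1.71 ± 0.30, 0.0221). XUT0592 had at most 34 reads in a library. The calls of XUT0109 and XUT0412 were lost without replicate 2 at 40 min or either replicate at 100 min (adjusted p of up to 0.154 and 0.173). Those of XUT0592 and XUT1258 were lost without any 1 of the 4 libraries (up to 0.211 and 0.164).

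With FU, XUT0785 rose by 1.83 ± 0.29 (limma adjusted p 0.0176), from 0.02 and 0.0150 to 0.0980 and 0.0880. XUT0312 rose as well, by 1.23 ± 0.26 (limma adjusted p 0.0370), from 0.0238 and 0.0206 to 0.0747 and 0.0619. XUT1558, divergent from the mitochondrial ribosomal protein gene MRPL3, fell by 2.02 (± 0.26, limma adjusted p 0.00867), from 0.124 and 0.157 to 0.0260 and 0.0249. XUT0315 fell by 1.86 (± 0.42, limma adjusted p 0.0470). Without either replicate at 100 min all 4 calls were lost, as were those of XUT0785, XUT0312 and XUT0315 without replicate 2 at 40 min (adjusted p of up to 0.114, 0.141 and 0.191, and 0.086 for XUT1558).

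In the deletion XUT0824, divergent from the mitochondrial ornithine transporter gene ORT1, rose from 0.237 and 0.188 to 0.875 and 0.682, by 1.81 ± 0.33 (limma adjusted p 0.0299). ORT1 was called higher as well, by 1.80 ± 0.33 (limma adjusted p 0.0299). XUT0628 rose by 1.46 ± 0.23 (limma adjusted p 0.0184), from 0.0212 and 0.0181 to 0.0715 and 0.0785. XUT1007 fell from 0.327 and 0.270 to 0.0714 and 0.0481, by 2.13 (± 0.29, limma adjusted p 0.0115), and XUT1049 fell by 1.69 (± 0.34, limma adjusted p 0.0426). Each of these 4 member calls was lost when any 1 of the 4 deletion libraries was left out (adjusted p of up to 0.278, 0.162, 0.144 and 0.301).

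No member was called for a different effect at the 2 times. For FU the count was 0 by limma and 0 by limma-voom, beside 0.104% of all features called in either direction, 0.00871% higher. Unadjusted p-values under 0.05 numbered 20 for a larger and 30 for a smaller change at 100 min. For the deletion the count was 0 by limma and 0 by limma-voom, beside 0.0784% of all features, and the unadjusted counts were 40 and 13. The median interaction was -0.05 for FU and 0.20 for the deletion, where the genes had -0.07 and 0.01. A missed call does not show that the effects at the 2 times were equal.

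In the deletion the changes of members and of the genes next to them were weakly related at most. For 270 divergent pairs of a member and a gene that were both tested, the correlation of changes in the deletion across pairs was -0.097 at 40 min and -0.029 at 100 min. The median change of these genes was 0.41 and 0.40, close to the 0.45 of all genes. Where the member was called higher at 40 min, 67 of 225 genes were called higher and 18 lower, beside 32.3% and 5.26% of all genes. For 139 pairs of a member and the gene downstream on the same strand the correlations were 0.0575 and 0.0528. Where the member was called higher at 40 min, 38 of 112 of these genes were called higher and 8 lower, beside the same shares of all genes. With FU the correlations of divergent pairs were 0.0892 at 40 min and 0.248 at 100 min, and those of pairs on the same strand were 0.0964 and 0.0605. Genes and members of a pair come from the same libraries, and pairs are not independent replicates.

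Genes of RNA decay and of early termination were described as a list of 32, all tested. With FU none was called by limma at 40 or 100 min (count 0; 18 and 2 were higher at an unadjusted p under 0.05, as were 22.8% and 19.2% of all genes). In the deletion 19 were called higher and 1 lower at 40 min and 14 higher and 1 lower at 100 min, the lower one being RRP6 itself. Beside this, 54.2% and 57.1% of all features and 32.3% and 34.5% of genes were called higher. With median-of-ratios scaling 5 were called higher and 2 lower (RRP6 and DCP1) at 40 min and 5 higher and 1 lower at 100 min. NRD1, the RNA-binding subunit named above, rose by 2.94 ± 0.24 (limma adjusted p 3.31e-05) and 3.0 ± 0.24 (2.50e-05), and NAB3 by 1.46 ± 0.36 (0.00711) and 1.22 ± 0.36 (0.0158).

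SEN1, the helicase of that complex, rose by 1.42 ± 0.20 (limma adjusted p 0.000381) and 1.39 ± 0.20 (0.000388). AIR2, a subunit of the TRAMP complex that helps the nuclear exosome, rose by 1.68 ± 0.24 (limma adjusted p 0.000404) and 1.66 ± 0.24 (0.000392). DIS3, the catalytic subunit of the exosome, rose by 1.02 ± 0.17 (limma adjusted p 0.000973) and 0.71 ± 0.17 (0.00604), the second of which was lost under median-of-ratios scaling (0.166). XRN1 was not called, with changes of 0.82 ± 0.42 (limma adjusted p 0.126) and 0.85 ± 0.42 (0.110). At 40 min the further calls were RAT1, RAI1, EDC3, DHH1, SKI3, SKI7, NAM7, NMD2, LRP1, MTR4, PAP2, TRF5, SET2 and RCO1, with changes from 0.47 to 1.86 and none called under median-of-ratios scaling. At 100 min they were RAT1, RAI1, DCP2, SKI3, NMD2, UPF3, LRP1, MPP6 and RCO1, with changes from 0.46 to 1.33. NMD2 had the largest of these, 1.33 ± 0.22 (limma adjusted p 0.000844). It kept its call under median-of-ratios scaling (0.0302), whereas the others lost theirs.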

How the data were processed

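Per the labels, hot phenol was used to extract RNA, rRNA was removed, and stranded libraries were read as 2 ends of 50 nt. The authors deposited 1 table with a signal, a read density, for each of 12026 features and 12 libraries. TopHat is named in the submitters' processing notes; the sources used here give no version, counting tool or build. Density times length, divided by 1 factor per library, gave whole reads for 100% of values (tolerance 0.001), and the factors equalise the reads over genes. Of 5789 genes matched to RefSeq R64 by locus tag, 5757 had the same start and end there, so R64 was used for sequence. Reads per library numbered 20102931 to 27498217; intervals cover counting error only.

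Members were XUTs with no nucleotide in common with a gene of the deposited table on the other strand. The members, classes and lists were chosen with earlier results of these data known. Log2(density + 0.0120), the pseudocount being the 10th percentile of values above 0, was fitted with limma 3.58.1 (R 4.3.3, trend) with 1 mean per group, for the 11485 features at or above the pseudocount in at least 2 libraries. The script was tested on simulated data. Python 3.11.15 with pandas 2.3.3, NumPy 2.4.6, SciPy 1.17.1 and matplotlib 3.10.9 did the rest. A count test had been planned as an alternative and was not run; limma-voom on the recovered reads was used in its place. Other scalings, pseudocounts, no filter, a replicate block, narrower memberships and leaving out each library were tried.

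Named members were, in each of the 4 comparisons with wild type, up to 5 with the largest called rise and 5 with the largest called fall whose libraries did not overlap, up to 3 each in the time comparisons, the 5 most abundant, and those past a snoRNA. Others are said to be picked out after their values were seen.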

Additional observations from a re-analysis of the deposited data

How the results depend on the processing

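The median change of members in the deletion relative to genes, computed also under median-of-ratios scaling and for 4 narrower memberships, stayed between 0.68 and 1.21 at 40 min and between 0.94 and 1.39 at 100 min, the lowest values being those of members that share nothing with a CUT, SUT, MUT or mSUT. The FU and time results depended on the processing. With median-of-ratios scaling the calls for FU numbered 0 at 40 min and 4 at 100 min, beside 0.0435% and 1.04% of all features. With a pseudocount 10 times larger they numbered 1 and 6, beside 0.139% and 1.43%. Time in wild type then had 5 calls, time in the deletion 41 and the deletion by time 2, beside 1.88%, 7.93% and 0.374% of all features. With a pseudocount 0.1 times as large FU at 100 min had 32 calls and time in the deletion 0, beside 3.62% and 1.17%. With limma-voom, chosen after seeing the data, FU had 5 and 8 and time in wild type 5, beside 0.688%, 1.72% and 2.02%. The members that share nothing with these 4 classes number 334 of the 670 tested, and their calls were FU 9 and 5, the deletion 227 and 231, FU against the deletion 127 and 176, and time 3 (wild type), 6 (FU) and 0 (deletion). The shares called were lower as well, with 68.0% and 69.2% for the deletion and 2.69% and 1.5% for FU.

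Leaving out single libraries gave 0 to 115 calls for FU at 40 min, 1 to 3 for FU at 100 min, 187 to 338 and 264 to 341 for FU against the deletion, 0 to 11 for time in wild type, 0 to 62 for time with FU and 0 to 0 for time in the deletion. The deletion itself kept most of its calls at both times, among the members and over all features. For time with FU, the share of all features called rose and fell along with the members' count. With the replicate number as a block the calls were 66 and 41 for FU (9.85% and 6.12%, all higher, beside 7.49% and 4.08% of all features). For time they were 20 (wild type), 34 (FU) and 9 (deletion), beside 4.18%, 7.86% and 3.4% of all features. The labels do not say that a number marks a shared batch, and same-numbered libraries deviated from their group means with correlations of -0.356 to 0.869 across genes (0.869 between wild type and FU at 40 min, 0.351 at 100 min), so the pairing is not established. A planned edgeR test on recovered reads was not run; limma-voom on the same reads stands in its place. The causes of these shifts were not tested. Depth limits scarce members most, since a few reads decide their values.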
